A study of Physcomitrium patens with 24 samples.

Results

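Of 70742 loci of protein-protected RNA mapped in protonema of the moss Physcomitrium patens, 819 were called in both dsRNase replicates at 0 min and in both at 30 min of abscisic acid (ABA), and held no site of any kind at 60 min. They are called lost loci here. A locus is a set of same-strand sites of the 3 deposited lists that overlap by at least 1 nt on the 27 chromosomes, so it stands for 1 place on an RNA across the times. The 4 dsRNase calls at 0 and 30 min were present at 12769 loci, of which the lost loci made up 6.41%. The other 11950 loci held at least 1 site at 60 min and are called kept loci. The lost loci were chosen by their dsRNase calls at 0 and 30 min and by the absence of any call at 60 min, and these calls are described without a test.

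Protein interaction profile sequencing (PIP-seq) digests crosslinked RNA with nucleases and reads the stretches that bound protein shields. RNA-binding proteins set the processing, stability, transport and translation of an RNA, and a protected stretch marks where protein sat on it. ABA is a plant hormone of water shortage, and moss protonema, a tissue of branching filaments, responds to it with desiccation tolerance.

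The study took protonema grown in liquid culture and crosslinked with formaldehyde at 0, 30 and 60 min of ABA. The 0-min group is the control, which received the solvent methanol, and the labels list no solvent group at 30 or 60 min, so ABA and elapsed time cannot be told apart. The 30-min and 60-min groups received ABA at 10 µM per the design text or 10 mM per the treatment protocol, a disagreement that was not settled. Each homogenate was split into a protein-bound and a structure-only part and again between an RNase that cuts single-stranded RNA (RNaseONE, ssRNase) and one that cuts paired RNA (RNase V1, dsRNase), which gave 24 libraries in 12 groups of 2 numbered replicates. No genotype or strain is given, and nothing says that replicates came from separate cultures, so p-values cover only the scatter of these samples, part of which may be technical. Each list merged 4 call sets, 1 per RNase and replicate, which gives 12 call sets of 24 libraries.

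The lists hold calls and not read counts, so the depth of each library is unknown. On the chromosomes the dsRNase sets called between 25801 and 37047 loci each, with both extremes at 30 min (replicate 2 lowest, replicate 1 highest), and the ssRNase sets between 5693 and 13217. The lists hold no RNA levels. Less protein on an RNA, less of that RNA per cell and fewer cells that make it cannot be told apart at any locus below.

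Most lost loci lay in a stretch of neighbouring sites that still held sites at 60 min. Where sites less than 500 nt apart on a strand are joined into a region, 572 of the 819 lost loci (69.8%) lay in 453 regions that kept a 60-min site. The other 247 (30.2%) lay in 209 regions without any 60-min site. These emptied regions were short, with a median of 2 loci and 261 nt, and 65 of them consisted of the lost locus alone. Regions that kept a 60-min site had a median of 9 loci and 1460 nt. The lost loci of both kinds had much the same width and score, with a median width of 54 nt and a median 30-min score of 23.43 in keeping regions, and 50 nt and 23.41 in emptied regions.

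Most regions with a lost locus held 1. Of the 662 regions that held a lost locus, 555 held 1, 80 held 2, 15 held 3, 3 held 4, 7 held 5 and 2 held 6. Of the 555 regions with 1 lost locus, 275 had no other locus with the 4 dsRNase calls, so no second locus could meet the rule there. Lost and kept loci stood side by side in 359 of the 662 regions. In the other 303 every locus with the 4 dsRNase calls was lost. Along a region, 404 lost loci were followed by another locus with the 4 calls, and at 104 of these (25.7%) the next one was lost too, against 6.41% lost among all loci with the 4 calls.

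A retained site was often close. The nearest same-strand 60-min site was less than 20 nt away at 106 lost loci (12.9%), less than 50 nt away at 208 and less than 500 nt away at 522. In the regions that kept 60-min sites the median distance was 101.5 nt, and 249 of 572 lost loci had a 60-min site within 500 nt on both sides. When a 60-min site within 20 nt also counted as kept, 713 loci were lost, and within 50 nt the number was 611.

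Lost loci were narrower than kept loci. Their width over the 0-min and 30-min sites had a median of 53 nt (quartiles 40 and 73 nt, highest 198 nt), against a median of 82 nt in kept loci (quartiles 54 and 131 nt, highest 1598 nt). Among loci of 25 to 49 nt, 334 of 2588 were lost, or 12.9% (95% Wilson interval 11.7 to 14.3%). Among loci of at least 150 nt, 25 of 2413 were lost, or 1.04% (0.703 to 1.53%). The intervals cover counting error only, and loci of a region are not independent of each other. The share lost fell with width from 25 nt on. Sites of all times were joined into loci, so a 60-min site could join separate earlier sites, and only kept loci hold such a site. A wider locus also offers more nucleotides for a 60-min site to overlap. How far this joining and overlap made the differences between lost and kept loci in width, score, number of sites and ssRNase calls was not tested.

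Lost loci also had lower scores than kept loci. The deposited score has no stated unit, so it only ranks sites within a list. The median score of lost loci was 31.26 in the 0-min list and 23.41 in the 30-min list, against 57.6 and 46.2 in kept loci. From the lowest to the highest quartile of the 30-min score, the share of loci lost was 16.1%, 6.89%, 2.54% and 0.0627%, the last being 2 of 3192 loci. By the 0-min score the shares were 14.3%, 7.74%, 3.01% and 0.564%. Against the whole 30-min list the lost loci were not at the bottom: their median score stood at percentile 61.0 of all sites, and that of kept loci at percentile 81.4. In the 0-min list the median percentiles were higher, at 69.0 for lost and 85.1 for kept loci.

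**Figure D1:**
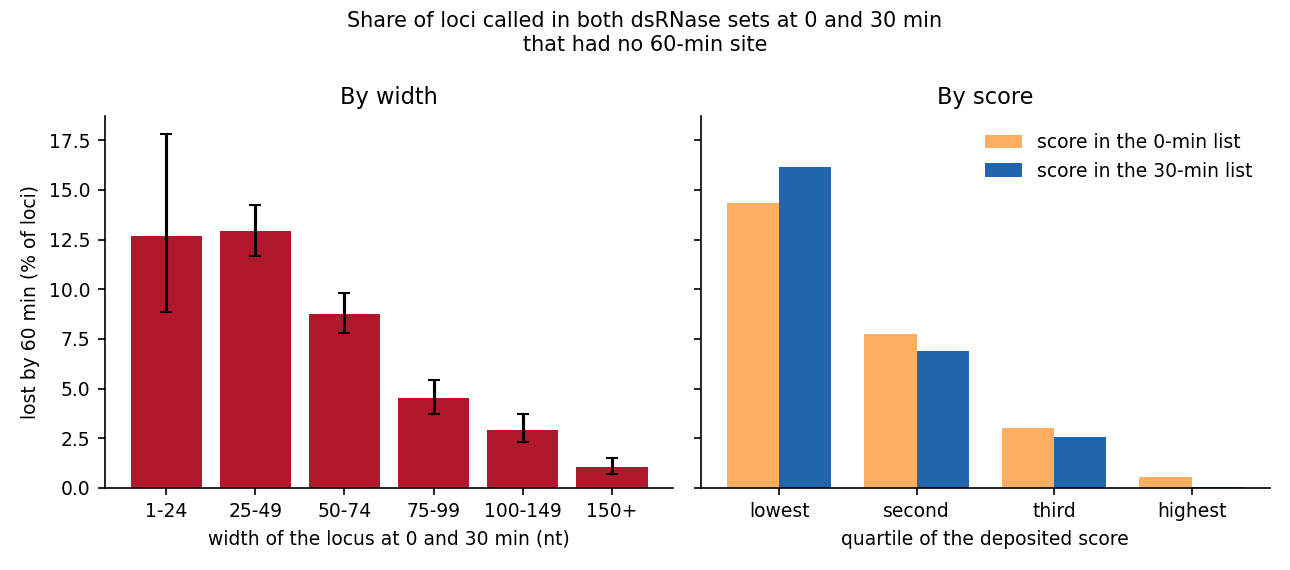
Share of loci called in both dsRNase sets at 0 and 30 min that had no 60-min site, in percent, by width class in nt (left, bars are 95% Wilson intervals) and by quartile of the deposited score in the 0-min and 30-min lists (right). The share was 12.9% at 25 to 49 nt and 1.04% at 150 nt or more, and 16.1% in the lowest and 0.0627% in the highest quartile of the 30-min score.

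The sites of the lost loci matched well between the 2 earlier times. At 762 of 819 lost loci (93.0%) a single 0-min site faced a single 30-min site, against 9083 of 11950 kept loci (76.0%). The kept share can be lower by construction, because only in kept loci could a 60-min site join separate earlier sites. The nucleotides covered at both times made up a median of 86.2% of those covered at either in lost loci, and 88.9% in kept loci. Coverage had not shrunk in most lost loci by 30 min: 425 had more covered nucleotides at 30 than at 0 min, 329 had fewer and 65 the same number. Kept loci had 6825 with more, 4034 with fewer and 1091 with the same number.

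Lost loci came from every chromosome, with shares between 3.94% of the loci with the 4 calls on chromosome 8 (14 of 355) and 10.5% on chromosome 24 (34 of 324). The plus strand held 56.2% of lost and 55.1% of kept loci. No lost locus was overlapped by a site on the opposite strand at any time. Such overlap was also rare at kept loci, with 13, 9 and 11 of 11950 (0.109%, 0.0753% and 0.0921%) at 0, 30 and 60 min. In regions of at least 1000 nt that kept 60-min sites, 112 of 419 lost loci (26.7%) lay in the fifth of the region nearest its 3′ end, against 1694 of 8083 kept loci (21.0%). In the fifth nearest the 5′ end the numbers were 85 lost (20.3%) and 1905 kept loci (23.6%). Regions are not transcripts, so their ends are only the outermost sites.

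Loci are named here by 1-based position as in the lists, whose genome build no source used here names, and genes were not assigned. Some lost loci occurred in near-identical copies. The widest were 2 loci of 198 nt on the plus strand of chromosome 20, at 4586739 to 4586936 and 4626326 to 4626523, and both had scores of 26.16 at 0 min and 27.37 at 30 min. Whether such copies shared reads was not tested. In all, 98 lost loci (12%) and 1913 kept loci (16.0%) lay in regions whose widths and gaps repeated those of another region over at least 3 steps. With such regions counted once the number of lost loci was 784, and without them it was 721.

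The 3rd widest lost locus, on chromosome 7 at 3666017 to 3666213 (plus strand, 197 nt), was also called in both ssRNase sets at 30 min. It scored 92.76 at 0 min and 59.38 at 30 min, and the nearest 60-min site lay 238 nt upstream. The other 5 of the 8 widest measured between 171 and 184 nt. The highest sum of scores belonged to a locus on chromosome 20 at 8830402 to 8830585 (plus strand), with 187.96 at 0 min and 63.37 at 30 min. It stood next to a 60-min site 85 nt upstream and had no ssRNase call. On chromosome 24 at 7432149 to 7432316 (minus strand) a locus scored 126.88 at 0 min and 74.44 at 30 min, was called in both ssRNase sets at 30 min and had the nearest 60-min site 207 nt away.

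Just outside the rule lay loci whose only 60-min site was a weak one. A pair on chromosome 4, at 2017527 to 2017579 and 2022594 to 2022646 (plus strand), had identical scores of 57.54, 56.37 and 6.45 at 0, 30 and 60 min, with the 60-min site from ssRNase replicate 1 alone. A locus on chromosome 26 at 10035080 to 10035133 (minus strand) had scores of 27.07, 27.5 and 6.45, with the 60-min site from dsRNase replicate 1 alone. In all, 1783 kept loci rested on 1 call set at 60 min, 1111 of them on dsRNase replicate 1 and 623 on dsRNase replicate 2. The number of lost loci therefore moved with each set: it was 1930 without dsRNase replicate 1 of 60 min, 1442 without replicate 2, and 2156 without replicate 2 of 30 min. Leaving out a set loosens the rule, so these numbers can only be higher.

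The regions with the most lost loci show the forms that loss took. On chromosome 20 at 3868747 to 3870679 (plus strand), 6 of 12 loci met the rule and the whole stretch was empty at 60 min. Its dsRNase sets called 11 and 10 loci at 0 min, 9 and 7 at 30 min, then 0 and 0 at 60 min. The covered length was 586 nt at 0 min, 530 nt at 30 min and 0 at 60 min. These numbers include the 6 lost loci, whose calls the rule fixed. The other 6 loci, which the rule did not pick, were called 5 and 4 times at 0 min, 3 and 1 times at 30 min and never at 60 min.

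A region on chromosome 1 at 26674254 to 26677572 (plus strand) had fewer calls at 30 min and was empty at 60 min. Its dsRNase sets called 14 and 13 of 17 loci at 0 min, 7 and 9 at 30 min and none at 60 min. These numbers include its 5 lost loci, whose calls the rule fixed. Covered length was 1097 nt at 0 min, 521 nt at 30 min and 0 at 60 min, so the protected stretch had already narrowed at 30 min. Of its 5 lost loci, the one at 26677311 to 26677451 scored 91.16 at 0 min and 43.14 at 30 min and was called in both ssRNase sets at 0 min and in 1 at 30 min.

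On chromosome 20 at 8828816 to 8830933 (plus strand), loss was uneven along the region. All 5 lost loci lay in its downstream part, between 8829905 and 8830933. A retained 60-min site lay among them, 37 nt downstream of the lost locus at 8829995 to 8830174 and 85 nt upstream of the one at 8830402 to 8830585, and other sites remained upstream of them all. The dsRNase sets called 12 and 12 of 13 loci at 0 min, 10 and 9 at 30 min, then 4 and 2 at 60 min. Covered length was 1745 nt, 1475 nt and 840 nt in the same order of times.

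In the longest of these regions the lost loci were scattered. It lies on chromosome 12 at 14137390 to 14145095 (plus strand), where 5 of 49 loci were lost and 25 kept. The dsRNase sets called 40 and 41 loci at 0 min, 46 and 35 at 30 min, then 30 and 24 at 60 min. These numbers include the 5 lost loci, whose calls the rule fixed. Without them the sets had 41 and 30 calls at 30 min and 30 and 24 at 60 min, so the groups touched. Its pattern of sites was repeated over 79 steps at 14230846 to 14238082 on the same chromosome, a region that held 1 lost locus, against 5 here.

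**Figure D2:**
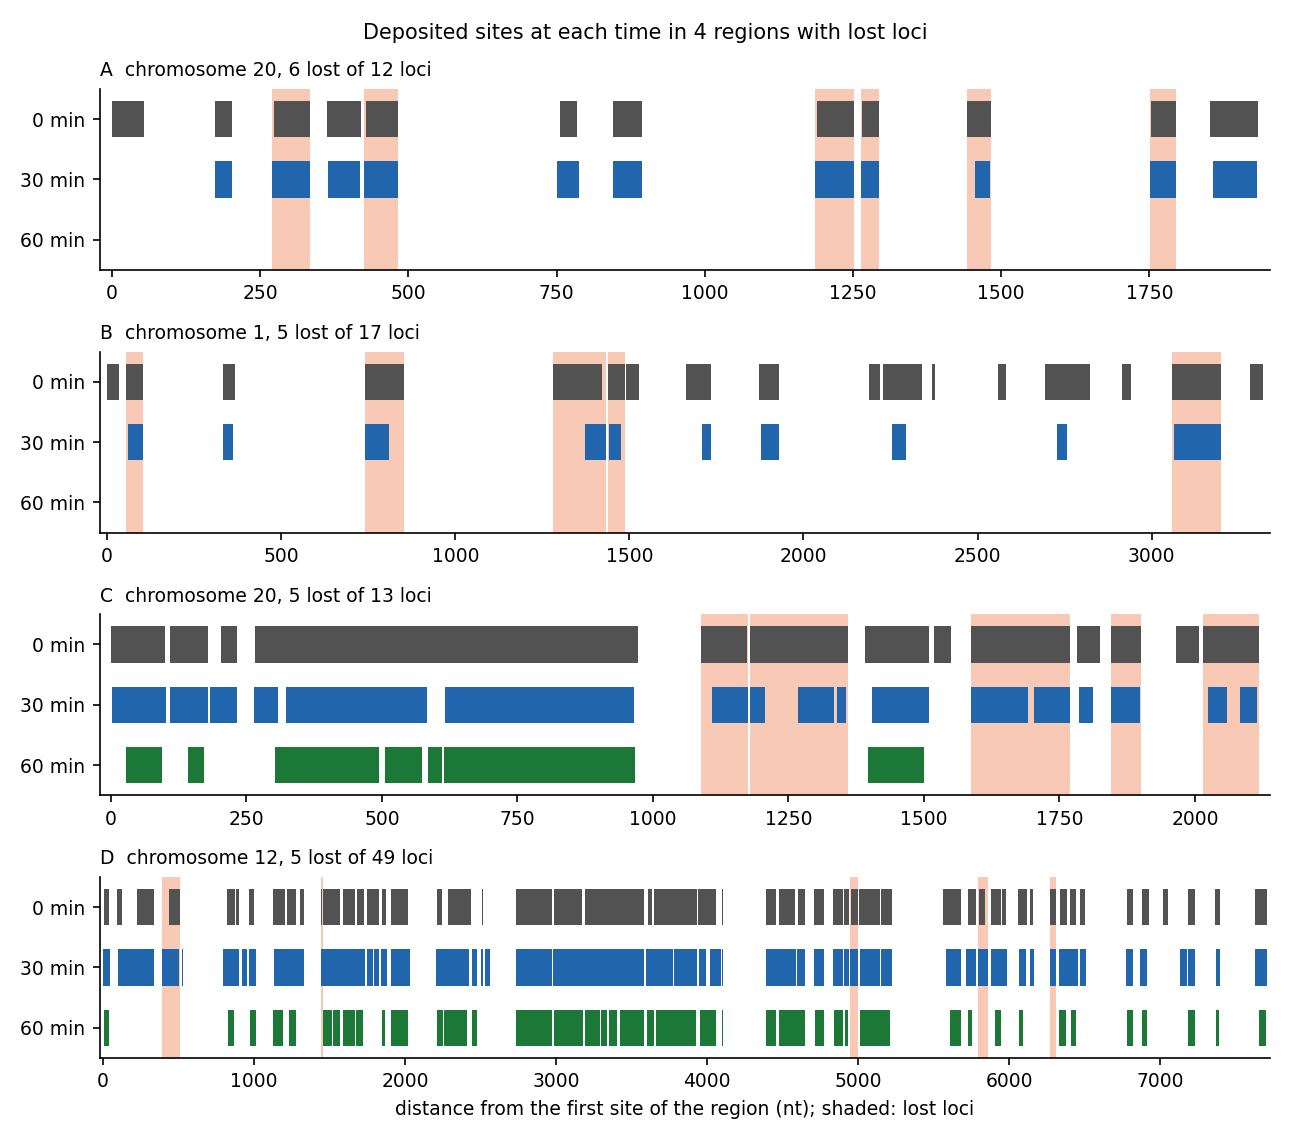
Deposited sites at 0, 30 and 60 min in 4 regions, by distance in nt from the first site, with lost loci shaded. In A (chromosome 20, from 3868747) and B (chromosome 1, from 26674254) no site was left at 60 min, in C (chromosome 20, from 8828816) the 5 lost loci lie in the downstream part with a retained site among them, and in D (chromosome 12, from 14137390) 5 lost loci lie among many retained sites.

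A pair of regions on opposite strands of chromosome 20 lost loci alike. At 15098117 to 15100726 (plus strand) 6 of 20 loci were lost, and the dsRNase sets called 18 and 16 loci at 0 min, then 17 and 14 at 30 min, then 6 and 4 at 60 min. From 15073149 to 15075764 (minus strand) 5 of 19 loci were lost, and the sets called 19 and 18 loci at 0 min, then 11 and 12 at 30 min, then 5 and 3 at 60 min. The regions repeat each other over 7 steps of width and gap, so they are not independent examples, and whether they share reads was not tested.

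Emptied regions could also be nearly empty by 30 min. On chromosome 15 at 16032806 to 16036182 (plus strand) the dsRNase sets called 19 and 17 of 21 loci at 0 min, 6 and 4 at 30 min and none at 60 min, and 4 loci met the rule. On the minus strand of the same chromosome at 15962640 to 15966015, of almost the same length, they called 17 and 20 of 22 loci at 0 min, 4 and 3 at 30 min and none at 60 min, and 3 met the rule. In both, most calls were absent by 30 min. Each holds a lost locus of 73 nt, so they may not be independent examples. They were not matched as copies over at least 3 steps of width and gap, and whether they share reads was not tested. A smaller region on chromosome 16 at 7908697 to 7910485 (minus strand) had 7 and 8 called loci at 0 min, then 6 and 3 at 30 min, then none at 60 min, with 2 lost loci.

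The ssRNase calls at 0 and 30 min were not used to choose the loci, and they were fewer at lost than at kept loci. At 0 min, ssRNase replicate 1 called 139 of 819 lost loci (17.0%), against 34.6% of kept loci, and replicate 2 called 91 (11.1%), against 28.8%. At 30 min, replicate 1 called 75 lost loci (9.16%), against 33.1% of kept loci, and replicate 2 called 167 (20.4%), against 51.4%. The share was lower at lost loci in 4 of 4 sets. Earlier sites joined by a 60-min site can raise the share at kept loci only, and how far they did was not tested. The difference of lost minus kept loci averaged -22.6 ± 6.36 percentage points (SD, n = 4 sets), with p = 0.125 in an exact two-sided sign-flip permutation test, the smallest p that 4 sets allow.

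That difference went with width and score. Within classes of width it averaged -11.1 points. Within quartiles of the 30-min score, an alternative added after the data were seen, it was 1.05 points in the opposite direction. The score and the ssRNase calls are not independent measures: among 30-min sites of both dsRNase sets, the median score was 25.66 with no ssRNase set merged, 47.155 with 1 and 100.92 with 2. Without a call in any ssRNase set of 0 or 30 min were 541 lost loci (66.1%) and 4455 kept loci (37.3%).

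Only 14 lost loci (1.71%) were called in all 4 ssRNase sets of 0 and 30 min, against 2004 kept loci (16.8%). These 14 were called in all 8 sets before 60 min and in none at 60 min. The widest of them, on chromosome 13 at 11433492 to 11433631 (plus strand, 140 nt), scored 88.98 at 0 min and 58.26 at 30 min, and a 60-min site lay 22 nt upstream. Others were at 14479138 to 14479257 on the minus strand and 19968779 to 19968891 on the plus strand of chromosome 1, with a 60-min site 11 nt and 655 nt away. One at 2764441 to 2764514 on chromosome 20 (minus strand, 74 nt) had scores of 78.85 and 62.5 and lay in a region of 2 loci that were both lost.

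**Figure D3:**
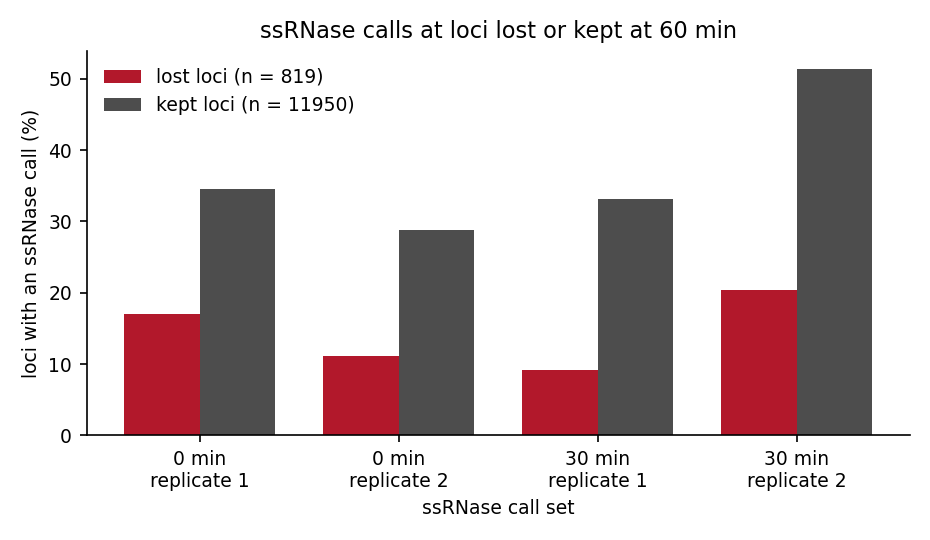
Share of lost (n = 819) and kept loci (n = 11950) with an ssRNase call, in percent, in each ssRNase set of 0 and 30 min. The lost loci reach 9.16 to 20.4% and the kept loci 28.8 to 51.4%.

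Between 0 and 30 min the ssRNase share of lost loci did not move in 1 direction. It averaged 14.8 ± 7.94% at 30 min and 14.0 ± 4.14% at 0 min (SD, n = 2 each), a difference of 0.733 points with p = 1 in an exact two-sided permutation test whose smallest p is 0.333. The groups overlapped, and without replicate 2 of 30 min the difference was -4.88 points, without replicate 2 of 0 min -2.20 points. At kept loci the share was 42.2 ± 12.9% at 30 min and 31.7 ± 4.11% at 0 min (p = 0.667 in the same exact test).

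The lost loci had 5200 neighbours in their 662 regions. Of these, 1529 had the 4 dsRNase calls at 0 and 30 min themselves and were kept, so they were called at both earlier times by definition and their dsRNase calls at 60 min could only be fewer. All neighbours together were called in 70.4% and 71.4% of cases by the dsRNase sets at 0 min, in 55.4% and 44.0% at 30 min, and in 43.4% and 38.6% at 60 min. Loci of all other regions (64723) were called in 44.4% and 49.6%, in 51.5% and 35.1%, and in 48.7% and 42.4% at the same times. Both 60-min sets were below both 30-min sets for all neighbours together, while the times overlapped in the other regions.

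For the neighbours the mean was 41.0 ± 3.39% at 60 min and 49.7 ± 8.09% at 30 min (SD, n = 2 each), a difference of -8.65 points with p = 0.333 in an exact two-sided permutation test. That is the smallest p of this design, so no such difference could pass a threshold. Without replicate 2 of 30 min the difference was -14.4 points, and without replicate 1 it was -2.93 points. In all other regions the difference was 2.26 points (p = 1 in the same exact test). The regions were chosen for holding a locus called at both earlier times, which favours regions well covered at 0 and 30 min.

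Without these 1529, 3671 neighbours remained. They were called in 58.1% and 59.5% of cases at 0 min, in 36.8% and 20.6% at 30 min, then in 23.8% and 19.4% at 60 min. Their mean was 21.6 ± 3.06% at 60 min and 28.7 ± 11.5% at 30 min (SD, n = 2 each), a difference of -7.14 points with p = 0.667 in the exact two-sided permutation test. The 60-min values overlapped the 30-min ones, and both 30-min values were below both at 0 min. In other regions, likewise without loci of the 4 calls, the shares were 33.8% and 39.9%, 42.2% and 22.6%, and 40.1% and 33.3%.

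**Figure D4:**
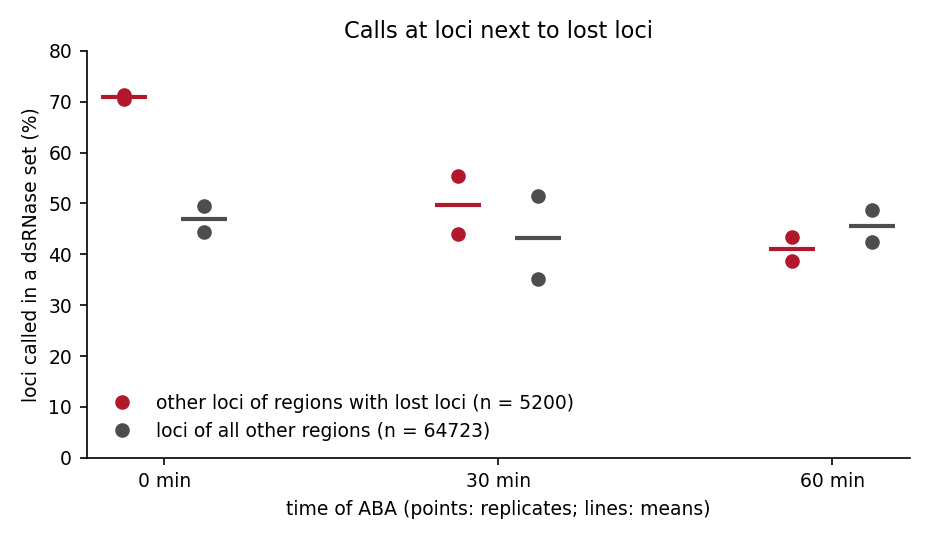
Share of loci called in each dsRNase set, in percent, for the other loci of regions with lost loci (n = 5200) and for loci of all other regions (n = 64723), at 0, 30 and 60 min of ABA. Points are replicates and lines their means, and the neighbours stand at 70.4 and 71.4% at 0 min and at 43.4 and 38.6% at 60 min.

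Regions were then compared between times on the number of dsRNase calls with the lost loci left out. The log2 numbers, scaled per set and strand after adding 0.5 calls, were fitted with limma over all 6 dsRNase sets, with Benjamini-Hochberg adjustment at 0.05 over the 4408 regions that averaged 2 or more calls per set. Fitted log2 differences of regions with few calls depend on the added 0.5 calls. Of the 662 regions with lost loci, 366 had enough other calls to enter. Those are the better covered ones. The kept loci stay in these counts with their calls at both earlier times fixed by definition, so their counts are a description beside the background.

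At 60 against 0 min, 85 of the 366 regions had fewer calls (background 6.08% of all regions tested) and 1 had more (background 18.1%). Their median log2 difference was -0.47, against 0.01 over all regions tested, and 310 of 366 were below 0. Without replicate 1 of 0 min, 50 regions had fewer calls. Of the 85 regions, 72 kept a 60-min site. A region could enter only by holding a locus called at 0 and 30 min, so regions that were empty at 0 min, which can only gain calls, were not among them.

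At 30 against 0 min, 29 of the 366 had fewer calls (background 3.77%) and 3 had more (background 16.4%). Leaving out a replicate of 0 min lowered the count of regions with fewer calls to 14 without replicate 1 and 19 without replicate 2. The median log2 difference was -0.25 in these regions and -0.03 over all regions. Of the 85 regions with fewer calls at 60 than at 0 min, 19 also passed at 30 against 0 min. The comparisons against 0 min share its samples, as do the 2 comparisons with the 60-min samples.

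At 60 against 30 min, the interval in which the loci were lost, 3 of the 366 had fewer calls in the rest of the region (background 0.113%) and 0 had more (background 0.113%). At an unadjusted p under 0.05 limma gave 65 with fewer and 8 with more calls, against 197 with fewer and 269 with more over all 4408 regions. The median log2 difference was -0.27, against 0.02 over all regions, and 268 of 366 were below 0. The count of 3 rests on few calls and moved with every set left out. It was 17 (background 0.817%) without replicate 1 and 16 (0.885%) without replicate 2 of 0 min. Without replicate 1 or 2 of 30 min it was 13 (0.499%) and 2 (0.25%), and without replicate 1 or 2 of 60 min 22 (1.45%) and 7 (0.386%). The count with more calls moved between 0 and 3.

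**Figure D5:**
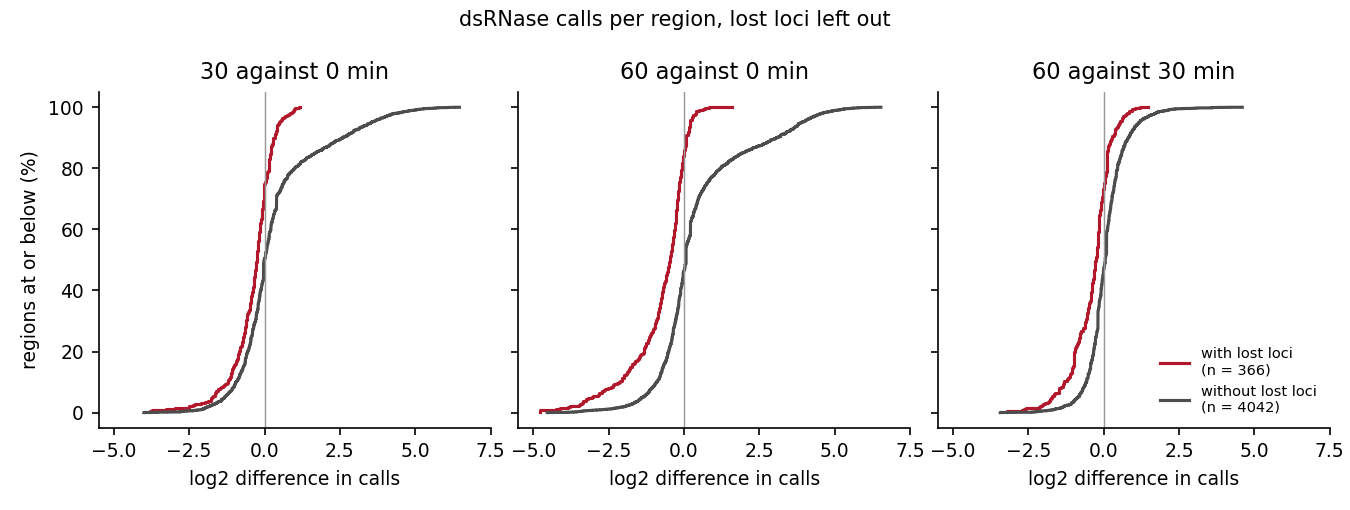
Cumulative share of regions, in percent, at or below each log2 difference in dsRNase calls with the lost loci left out, for regions with (n = 366) and without lost loci (n = 4042). The curve of regions with lost loci lies to the left over most of its range in each panel, with a median of -0.25 at 30 against 0 min, -0.47 at 60 against 0 min and -0.27 at 60 against 30 min.

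The 3 regions that passed at 60 against 30 min had no or few other dsRNase calls at 60 min. On chromosome 12 at 12282756 to 12284555 (plus strand), the 9 loci outside the rule had 0 and 0 dsRNase calls at 60 min, against 4 and 5 at 30 min (5 and 2 at 0 min). The number at 60 min was at least 1.5-fold lower than at 30 min against a floor of 3 calls per set, and limma gave an adjusted p of 0.0463. A single 60-min site remained, of 23 nt, called in both ssRNase sets. Its 2 lost loci were at 12283090 to 12283175 and 12284319 to 12284373.

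The other 2 regions lie near each other on chromosome 25 on opposite strands and have similar lengths of 1211 and 1219 nt. With 2 lost loci in each, similarly placed, they may not be independent examples. They were not matched as copies over at least 3 steps of width and gap, and whether they share reads was not tested. Each has 3 kept loci, which were called at 0 and 30 min by definition and stay in the counts. At 2624301 to 2625511 (plus strand) the other loci had 2 and 1 calls at 60 min, against 9 and 7 at 30 min (7 and 5 at 0 min), a log2 difference of -2.03 ± 0.35 (SE, limma adjusted p = 0.0463). At 2617790 to 2619008 (minus strand) they had 2 and 1 calls at 60 min, against 7 and 6 at 30 min (6 and 7 at 0 min), a log2 difference of -2.04 ± 0.36 (SE, limma adjusted p = 0.0463). In both, calls at 30 min were as many as at 0 min. Covered length at 0, 30 and 60 min was 507, 623 and 132 nt on the plus strand and 495, 540 and 103 nt on the minus strand.

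None of these 3 calls held under every setting. Without replicate 2 of 30 min the limma adjusted p was between 0.0564 and 0.0829, and without replicate 2 of 60 min it was 0.050 and 0.0575 for the chromosome 25 regions. Scaling over both strands together gave 0.0978 for each.

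Among the regions with the most lost loci, the rest of the region passed the test with fewer calls at 60 than at 0 min in 5 of 6. These regions were picked by their lost loci, so the values describe them only. Kept loci, called at 0 min by definition, stay in the counts. They number 4 from 15098117, 4 from 8828816, 2 from 15073149, 25 from 14137390, 0 from 26674254 and 0 from 3868747. On chromosome 1 from 26674254 the other loci had 0 and 0 calls at 60 min, against 9 and 8 at 0 min, at least 2.83-fold lower (limma adjusted p = 6.75e-05), and 2 and 4 at 30 min. That region did not pass for 60 against 30 min (limma adjusted p = 0.0679) or for 30 against 0 min (limma adjusted p = 0.0844). On chromosome 20 from 3868747 the other loci had 0 and 0 calls at 60 min, against 5 and 4 at 0 min, at least 1.5-fold lower (limma adjusted p = 0.000975, but 0.0784 without replicate 1 of 0 min and 0.0735 without replicate 2).

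Elsewhere on chromosome 20 the rest of the region was thinned and not emptied. From 15098117 the other loci had 6 and 4 calls at 60 min, against 12 and 10 at 0 min, a log2 difference of -1.02 ± 0.28 (SE, limma adjusted p = 0.0169, but 0.0795 without replicate 1 of 0 min and 0.147 without replicate 2 of 60 min). From 15073149 they had 5 and 3 calls at 60 min, against 14 and 13 at 0 min, a difference of -1.46 ± 0.34 (SE, limma adjusted p = 0.00508). From 8828816 they had 4 and 2 calls at 60 min, against 7 and 7 at 0 min, a difference of -1.09 ± 0.35 (SE, limma adjusted p = 0.0365, but 0.0758 and 0.140 without replicate 1 or 2 of 0 min and 0.296 without replicate 2 of 60 min). In the chromosome 12 region from 14137390 the other loci had 30 and 24 calls at 60 min, against 35 and 36 at 0 min, and the difference of -0.33 ± 0.22 did not pass (SE, limma adjusted p = 0.360).

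In the regions emptied on chromosome 15, few of the other loci were called at 30 min. These regions were picked among emptied ones for the most covered length at 0 min, which favours a drop from 0 min. The values therefore describe them only, and the regions may not be independent examples. From 16032806 the other loci had 2 and 0 calls at 30 min, against 15 and 13 at 0 min, a log2 difference of -3.72 ± 0.63 (SE, limma adjusted p = 0.000592, but 0.0649 and 0.0823 without replicate 1 or 2 of 0 min). From 15962640 they had 1 and 0 calls at 30 min, against 14 and 17 at 0 min, a difference of -3.80 ± 0.61 (SE, limma adjusted p = 0.000382, but 0.0963 and 0.0919 without replicate 1 or 2 of 0 min). At 30 min the lost loci were thus most of what was still called there.

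The ssRNase calls of the same regions, again without the lost loci, gave a fit of 1164 regions, 132 of them with lost loci. At 60 against 0 min 15 had fewer ssRNase calls (background 2.66%) and 0 had more (background 16.5%), or 38 with fewer and 3 with more at an unadjusted p under 0.05 in limma, against 93 with fewer and 241 with more over all 1164 regions. At 60 against 30 min 1 had fewer (background 0.0859%) and 0 had more (background 0.0%), and at an unadjusted p under 0.05 limma gave 22 with fewer and 2 with more, against 51 with fewer and 86 with more over all. At 30 against 0 min 1 had fewer (background 0.344%) and 1 had more (background 13.2%).

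Among the regions named above, 3 ssRNase differences passed. On chromosome 12 from 14137390 the other loci had 1 and 0 ssRNase calls at 60 min, against 11 and 5 at 0 min, a log2 difference of -2.74 (limma adjusted p = 0.00682), while the dsRNase difference had not passed. On chromosome 25 from 2624301 they had 0 and 0 at 60 min, against 4 and 4 at 0 min (limma adjusted p = 0.00515). On chromosome 20 from 15098117 they had 5 and 8 at 30 min, against 2 and 1 at 0 min, a log2 difference of 1.35 (limma adjusted p = 0.0423), opposite in sign to the dsRNase difference of -0.24, which did not pass. At 60 against 0 min the ssRNase calls there and from 15073149 also lay the other way from the dsRNase calls, with log2 differences of 1.07 and 0.84, which did not pass (limma adjusted p = 0.0824 and 0.153). They rest on few calls, 2 and 3 at 60 min against 2 and 1 at 0 min from 15098117, and 3 and 4 at 60 min against 2 and 2 at 0 min from 15073149.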

How the data were processed

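The 3 deposited lists of protein-protected sites, 1 per time, were analysed. Per the submitters' processing notes, reads were processed with cutadapt 1.2.1 and TopHat2 2.0.10. The build they name is a mouse build, which the sequence names of the lists contradict. Which build the coordinates follow, and the peak caller, are therefore not given in the sources used here. Coordinates are 1-based. The score of a site is a deposited value with no stated unit, and served only for ranking within its list. The names of the merged calls gave the time, RNase and replicate of each call. Genes could not be named and no sequence is shown, because no genome of this build was used here.

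With Python 3.11.15, overlapping sites were merged into loci, and regions were closed at gaps of 500 nt or more. The members, and the tests and lists, were chosen with earlier results of these data known. Named were the 8 widest lost loci, the 6 with the highest summed scores, the 6 with the most ssRNase sets (ties by width), the 6 regions with the most lost loci, the 4 most covered emptied regions with at least 2 lost loci, up to 4 regions per direction passing at 60 against 30 min, and 3 loci just outside the rule. Copies were regions whose successive widths and gaps matched over at least 3 steps. Regions were fitted with limma 3.58.1 (R 4.3.3) and a mean trend, which was tested on simulated data. The floor was 3 calls per set. Differences of shares between call sets were tested by exact permutation. Settings varied were overlap, gap, score threshold, scaling, filter, prior, samples in the fit, replicate block, RNase and each call set left out.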

Additional observations from a re-analysis of the deposited data

Results flagged for a closer look

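The report used only sites on the 27 chromosomes. On the scaffolds, which no comparison used, 116 loci had both dsRNase calls at 0 and at 30 min, and 5 of them had no 60-min site. With scaffolds added the number of lost loci was 824.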

How the results depend on the processing

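The number of lost loci, 819, lay between 611 and 876 when overlap, gap to a 60-min site, RNase of the 60-min site, copies or scaffolds were varied. It was 1029 to 2156 with 1 dsRNase set left out, and 2410 among sites at or above the median score of each list. At least 2 call sets were merged in 94.3% of those sites at 0 min, in 94.5% at 30 min and in 96.4% at 60 min, against 11.7%, 10.1% and 14.9% below the median. That choice also drops 60-min sites below the median, so a locus with only such a 60-min site counts as lost. What raised the number was not tested.

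The lower ssRNase share of lost loci lay between -24.2 and -19.8 points with 1 set left out, and reached 1.05 points within quartiles of the 30-min score. The ssRNase difference of 30 against 0 min lay between -4.88 and 6.35 points with 1 set left out. The neighbours' difference of 60 against 30 min lay between -14.4 and -2.93 points.

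Counts of regions with lost loci are given with the number tested where it is not 366, and with the share of all regions tested (background) in brackets. For fewer calls at 60 against 30 min (3), the count was 0 with scaling over both strands (background 0.0%), without scaling (0.0227%) or with a mean of at least 1 call (450 tested, 0.0%). It was 28 of 594 without a filter (0.392%), 18 with a prior of 1 call (0.862%), 156 of 728 above the median score (20.4%), 1 of 132 with ssRNase sets (0.0859%), 48 of 430 with the lost loci counted (1.21%), 15 with only the 4 sets compared (0.907%) and 2 to 22 with 1 set left out. More calls (0) became 207 of 728 above the median score (37.9%) and 0 to 3 with 1 set left out. Over all regions, 5 had fewer and 5 more calls, but 1 had fewer and 20 more (4.76% of calls fewer) without scaling.

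At 60 against 0 min, fewer calls (85) became 44 of 239 with a 200 nt gap (3.54%), 266 of 728 above the median score (20.9%), 15 of 132 with ssRNase sets (2.66%), 164 of 430 with the lost loci counted (7.89%) and 50 to 100 with 1 set left out. More calls (1) became 0 without scaling (12.7%), 0 of 239 with a 200 nt gap (17.4%), 0 of 132 with ssRNase sets (16.5%), 160 of 728 above the median score (48.7%), 2 with only the 4 sets compared (19.3%) and 1 to 2 with 1 set left out. At 30 against 0 min, fewer calls (29) became 10 of 239 with a 200 nt gap (2.22%), 278 of 728 above the median score (26.1%), 1 of 132 with ssRNase sets (0.344%), 19 of 430 with the lost loci counted (3.53%), 45 with only the 4 sets compared (6.4%) and 14 to 41 with 1 set left out. More calls (3) became 1 without scaling (10.8%), 1 of 594 without a filter (4.67%) or 1 of 132 with ssRNase sets (13.2%), 0 of 450 with a mean of at least 1 call (11.3%), 0 of 239 with a 200 nt gap (16.1%), 0 of 430 with the lost loci counted (16.2%), 108 of 728 above the median score (36.7%) and 1 to 4 with 1 set left out. With 1 set left out, the lone set of a time is assumed to vary like the others.

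Some log2 differences of single regions turned sign. With ssRNase sets they were 1.07 at 60 against 0 min and 1.35 at 30 against 0 min on chromosome 20 from 15098117, and 0.61, 0.84 and 0.23 at 60 against 30, 60 against 0 and 30 against 0 min from 15073149. With ssRNase sets at 30 against 0 min they were also -0.28 on chromosome 12 from 12282756 and -1.07 on chromosome 25 from 2624301. Above the median score, 60 against 30 min gave 0.077 on chromosome 12 from 14137390, 0.022 on chromosome 20 from 15073149 and 0.18 from 8828816. At 30 against 0 min, 14137390 gave 0.16 with scaling over both strands and -0.15 to 0.055 with 1 set left out, and 12282756 gave -0.093 to 0.88. The cause of these shifts was not tested.

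Whether equal replicate numbers pair the samples is not given in the labels. Same-numbered sets deviated with correlations of -0.06 (0 and 30 min), -0.03 (0 and 60 min) and 0.19 (30 and 60 min) over 4408 regions. Such correlations cannot show how the samples were processed. With the replicate block, 5 regions had fewer calls at 60 against 30 min, 85 at 60 against 0 min and 30 at 30 against 0 min, and the ssRNase difference was 0.733 points. No read counts were used here, so how far uneven depth changed the calls was not tested.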
